A study of Mus musculus with 13 samples.

Results

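This account describes 49 genes of the cell division cycle, chosen by gene symbol from G1, S phase and mitotic functions, of the 24495 genes in a table of RNA-seq read counts from mouse cells at the start of reprogramming. All 49 had enough counts to be tested, among 14607 genes tested in all.

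The cells were primary mouse embryonic fibroblasts (MEFs) isolated at embryonic day 12.5 on the V6.5 129XBI/6 strain background. All groups were labelled Tet2-/-, for the loss of an enzyme that oxidises 5-methylcytosine in DNA, and carried the OKSM cassette (the factors Pou5f1, Klf4, Sox2 and Myc) with the doxycycline-responsive activator rtTA. In 3 groups, such MEFs were infected with a pMXs retrovirus, seeded on MEF feeders whose division had been stopped with Mito-C, and taken at reprogramming day 5. The virus was empty (pMXs, n = 3), carried wild-type Tet2 (Tet2-WT, n = 3) or carried a Tet2 mutant that the study calls a stalling mutant (Tet2-E, n = 4). Day 5 cultures had LIF, 1 µM PD0325901 (an inhibitor of MEK, upstream of ERK), 3 µM CHIR99021 (an inhibitor of GSK3) and 2 µg/mL doxycycline. The fourth group was Untreated MEFs (n = 3), grown in MEF medium and not reprogrammed, and the labels do not settle whether these carried the empty vector. All cells were kept at 5% oxygen. The labels name neither a sort nor a removal of feeders, so a day 5 library holds RNA of the whole culture, and fewer cells of a type cannot be told apart from less RNA per cell.

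As background, D-type cyclins with CDK4 or CDK6, and then cyclin E with CDK2, phosphorylate the RB family of pocket proteins and free E2F factors, which switch on genes for DNA replication. Genes for mitosis follow later in the cycle through cyclin A, B-MYB (Mybl2) and FOXM1, which act with the MuvB core at promoter elements called cell cycle genes homology regions (CHR). Fibroblasts divide with a long G1 phase, whereas pluripotent cells divide fast and with a short one, and Myc is known to act on many genes of G1 and S phase.

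Promoters give a view of these genes that does not rest on their counts. RefSeq promoter sequences (build GRCm38.p6, from 250 bases before to 50 after the start) were at hand for 41 of the 49 genes and for 11089 of the genes tested. They were searched on both strands for CHR (TTTGAA or TTCGAA), for the CCAAT box bound by NF-Y, and for E2F motifs (TTTCCCGC, TTTCGCGC, TTTGCCGC or TTTGGCGC). Ccne2, Ccnd1, Ccnd2, Aurkb, Mcm4, Ccna2, Foxm1 and Cdc25c had no entry. A gene with several entries, such as E2f2 or Mcm7, counted once, as a match if any entry held the motif. For E2f2 the CHR and the E2F motif stood in different entries.

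A CHR was found in 19 of the 41 genes (46.3%, against 16.3% of all genes tested and 21.7% of all 27025 genes with a promoter sequence). CCAAT was found in 32 (78.0%, against 42.8% and 41.1%), and an E2F motif in 12 (29.3%, against 4.45% and 2.6%). By role, an E2F motif stood in 6 of 7 licensing and helicase genes and in 0 of 7 mitotic kinase and checkpoint genes. A CHR stood in 2 of 7 of the former and 6 of 7 of the latter, but this contrast rests on the bases after the start. In the 250 bases before the start alone, a CHR stood in 2 of 7 genes of each class, and an E2F motif in 4 of 7 and 0 of 7. Promoters of the G1 class held neither a CHR nor an E2F motif in 4 of 4 genes. In this shorter window the share with a CHR was 29.3% for the 41 genes and 14.6% for all genes tested, and it stood in 2 of 6 centromere genes in place of 4 of 6. A match describes letters in a window and is not a shown binding site.

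The following stretches, which end at the base before the annotated start, are shown because they carry these motifs in a licensing pair (Mcm5 and Mcm6) and in genes of G2 and mitosis. They are written 5′ to 3′ on the strand of the gene, with the motifs in capitals. ATTGG and TTCAAA are CCAAT and CHR read from the other strand, and the long capital runs in Mcm5 and Mcm6 are 2 E2F motifs on opposite strands that overlap each other. The places are chr8:75109349-75109508 (plus strand) for Mcm5, chr1:128359706-128359820 (minus) for Mcm6, chr10:69352913-69353052 (minus) for Cdk1, chr17:24251410-24251559 (minus) for Ccnf, chr4:118437344-118437403 (minus) for Cdc20 and chr11:99024190-99024384 (minus) for Top2a.
Mcm5: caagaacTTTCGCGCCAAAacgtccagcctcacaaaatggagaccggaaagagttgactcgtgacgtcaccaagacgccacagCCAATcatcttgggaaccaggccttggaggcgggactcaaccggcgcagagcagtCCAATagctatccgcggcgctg
Mcm6: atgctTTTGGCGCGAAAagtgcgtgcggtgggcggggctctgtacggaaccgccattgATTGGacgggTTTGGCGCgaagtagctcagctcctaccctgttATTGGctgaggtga
Cdk1: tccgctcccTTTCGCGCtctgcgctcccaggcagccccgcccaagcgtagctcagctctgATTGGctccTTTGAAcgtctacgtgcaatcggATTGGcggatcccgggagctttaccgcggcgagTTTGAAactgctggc
Ccnf: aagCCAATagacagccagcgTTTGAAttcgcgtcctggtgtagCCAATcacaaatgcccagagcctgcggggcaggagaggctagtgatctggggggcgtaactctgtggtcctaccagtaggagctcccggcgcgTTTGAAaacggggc
Cdc20: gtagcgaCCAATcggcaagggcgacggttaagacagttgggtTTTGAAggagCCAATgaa
Top2a: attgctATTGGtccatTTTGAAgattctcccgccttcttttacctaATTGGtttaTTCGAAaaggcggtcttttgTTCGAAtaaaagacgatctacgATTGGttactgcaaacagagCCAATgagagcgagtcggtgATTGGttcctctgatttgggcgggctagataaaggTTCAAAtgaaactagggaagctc

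Libraries held 14052646 to 26265382 counts. Tet2 was at 37.8 to 58.8 CPM (a gene's count scaled to the size of its library) in the 6 libraries without a Tet2 vector, at 1176 to 1243 CPM with Tet2-WT, and at 1356, 1403, 581 and 1299 CPM in Tet2-E replicates 1, 2, 100 and 250. Counts per gene do not show whether the Tet2 reads without a vector lie inside the deleted stretch, so they do not check the deletion. Levels of a gene are given below in CPM, corrected for library composition but not for gene length, so they compare samples and not genes. Unless said otherwise the order is Untreated replicates 1, 2 and 100, pMXs 2, 100 and 250, Tet2-WT 1, 2 and 250, and Tet2-E 1, 2, 100 and 250. A change is a log2 fold change ± its standard error from edgeR's quasi-likelihood test, and genes rose or fell where the Benjamini-Hochberg adjusted p over all 14607 genes was under 0.05. Nothing in the labels ties replicates to separate cultures. A p-value here weighs a difference between groups only against the spread of libraries inside the groups, which may be technical.

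Between Untreated MEFs and day 5 cells with the empty vector, 46 of the 49 cell cycle genes rose and 3 fell (Ccnd3, Cdkn1b and E2f1), and no gene had overlapping groups. Among all genes tested, 35% rose and 35% fell, and 36.1% and 35.9% had groups that did not overlap with pMXs higher and lower. The median change was 1.21 for the 49 genes and 0 for all genes. In 33 of the 49 the rise was at least 2-fold, which held for 13.3% of all genes. The groups differ in OKSM expression, feeders, medium and perhaps vector infection at once, and these cannot be told apart. Scaling by total count alone moved the median of all genes to 0.17 and their split from 5118 higher and 5116 lower to 6299 and 4129, with a median of 1.37 for the 49 genes, 46 of them higher.

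**Figure D1:**
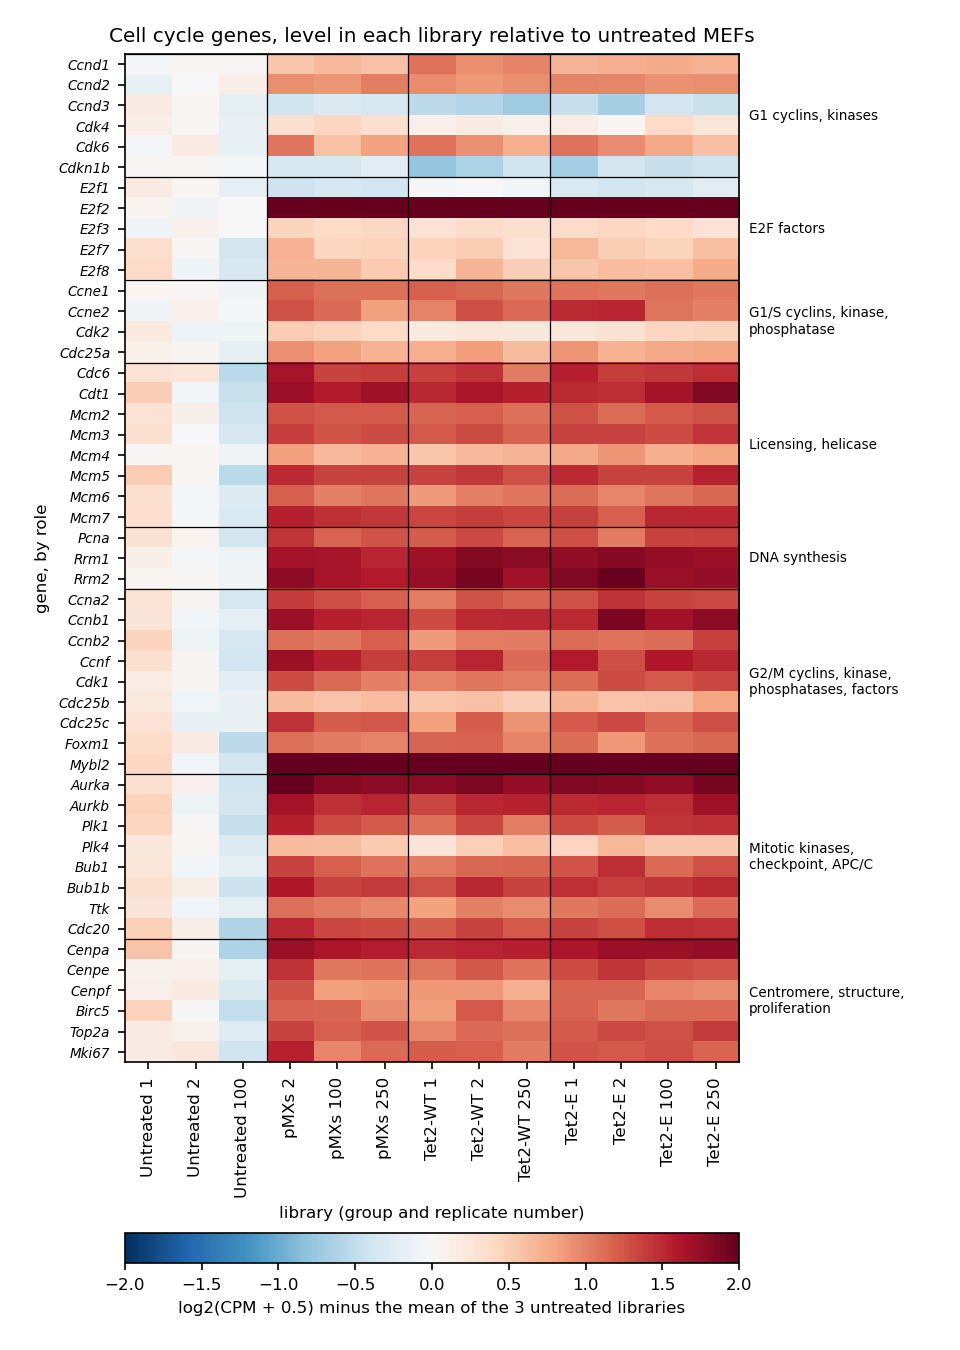
Level of each of the 49 genes (rows, by role) in each of the 13 libraries (columns), as log2(CPM + 0.5) minus the mean of the 3 Untreated libraries; the colour scale stops at 2, which E2f2 and Mybl2 exceed in all day 5 libraries. With pMXs, 46 rows are higher than in Untreated MEFs and Ccnd3, Cdkn1b and E2f1 are lower, and Untreated 100 is the lowest Untreated library in 42 rows.

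The G1 cyclins and their kinases changed least, with a median of 0.48 and both directions among them. Ccnd1 (cyclin D1) stood at 862, 891 and 891 CPM in Untreated MEFs and at 1297, 1375 and 1321 CPM with pMXs (0.59 ± 0.07, adjusted p = 9.48e-07). Ccnd2 (cyclin D2) went from 3292, 3672 and 4018 CPM to 6959.6, 6715 and 7403 CPM (0.94 ± 0.08, adjusted p = 6.48e-08). Ccnd3 (cyclin D3) went the other way, from 217, 199 and 169 CPM to 147, 159 and 152 CPM (-0.35 ± 0.09, adjusted p = 0.00403). The 3 D-type cyclins thus did not move together, and the lowest Untreated library for Ccnd3, replicate 100, lay close to the pMXs values.

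Of the kinases that D-type cyclins bind, Cdk6 was at 123, 141 and 113 CPM in Untreated MEFs and 264, 189 and 219 CPM with pMXs (0.83 ± 0.14, adjusted p = 7.95e-05), and Cdk4 rose by less (0.36 ± 0.09, adjusted p = 0.00235). Cdkn1b, which encodes the CDK inhibitor p27, fell from 94.4, 93.5 and 89.6 CPM to 73, 73.9 and 78.8 CPM (-0.30 ± 0.10, adjusted p = 0.0122). The falls of Ccnd3 and Cdkn1b did not pass when libraries were scaled by total count alone (adjusted p = 0.0999 and 0.254). Contrasts were also taken within replicate numbers 1 and 2, where pMXs is 1 library, and within 100 and 250, where Untreated and Tet2-WT are 1 library each. A lone library is assumed there to vary like the others, and missing the threshold says little. Within 100 and 250, against Untreated 100 only, Ccnd3 changed by -0.11 (adjusted p = 0.338) and Cdkn1b by -0.23 (adjusted p = 0.0835). Within 1 and 2 the values were -0.50 and -0.36.

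Among the E2F factors, the activators parted. E2f2 was low in Untreated MEFs, at 2.33, 2.07 and 2.24 CPM and reached 17.2, 13.6 and 13.5 CPM with pMXs (2.73 ± 0.13, adjusted p = 9.06e-11), the largest rise of the 49 genes. E2f1 fell from 38.7, 35.6 and 30.2 CPM to 25.9, 27.5 and 26.4 CPM (-0.39 ± 0.09, adjusted p = 0.00091). E2f3, the third activator, lay between 51 and 56.9 CPM and rose to between 71.1 and 73.2 CPM (0.42 ± 0.06). The E2f1 libraries did not overlap, but the gap was small. The change was -0.52 within replicate numbers 1 and 2, and -0.16 (adjusted p = 0.197) within 100 and 250, against the lone Untreated 100, the lowest Untreated library for this gene.

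The atypical factors E2f7 and E2f8, which repress E2F targets, both rose. E2f8 was at 12.9, 9.37 and 7.79 CPM in Untreated MEFs and 16, 16.1 and 14.4 CPM with pMXs (0.62 ± 0.15, adjusted p = 0.00153), and E2f7 changed by 0.51 ± 0.15 (adjusted p = 0.00561). Necab3, which overlaps E2f1 in RefSeq, was at a mean of 0.851 to 1.12 CPM in the 4 groups, far below E2f1.

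The G1/S group rose in 4 of 4 genes, with a median of 0.97. Ccne1 (cyclin E1) was at 26.5, 26.4 and 24.5 CPM in Untreated MEFs and 59.8, 56.2 and 55.6 CPM with pMXs (1.15 ± 0.07, adjusted p = 8.9e-10). Ccne2 (cyclin E2) was at 7.53, 8.51 and 7.74 CPM and then 19.9, 17.9 and 14.3 CPM (1.13 ± 0.16). Both cyclins E rose by more than 2-fold, while their kinase changed less. Cdk2 was at 34.8, 28.1 and 28.4 CPM and then 43.1, 41.7 and 40.1 CPM (0.45 ± 0.09, adjusted p = 0.000323). Cdc25a, the phosphatase that activates CDK2, rose by 0.81 ± 0.09.

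All 8 genes of replication licensing and the MCM helicase rose, with a median of 1.32. Cdt1, which loads the helicase, was at 18.7, 12.6 and 9.54 CPM in Untreated MEFs and 44.1, 40.5 and 43.7 CPM with pMXs (1.64 ± 0.17, adjusted p = 8.55e-07). Cdc6, the other loading factor, was at 7.53, 7.25 and 4.04 CPM and then 20, 16.3 and 16.7 CPM (1.49 ± 0.18, adjusted p = 2.59e-06). For both, the spread was wide in Untreated MEFs and narrow at day 5.

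The 6 helicase subunits are needed in equal number in the complex, and 5 of them changed by 1.08 to 1.45, namely Mcm6 (1.08 ± 0.12), Mcm2 (1.22 ± 0.12), Mcm3 (1.30 ± 0.12), Mcm5 (1.34 ± 0.18) and Mcm7 (1.45 ± 0.13). Mcm4 rose less, from 77.3, 78.1 and 72.5 CPM to 134, 119 and 123 CPM (0.72 ± 0.07, adjusted p = 2.46e-07). Mcm4 also had the closest Untreated values of the 6. Mcm7 is the host of the microRNA genes Mir106b, Mir93 and Mir25 and overlaps Ap4m1, for which a change did not pass (0.07 ± 0.11, adjusted p = 0.59).

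The genes of DNA synthesis had the highest class median, 1.62. Rrm2 and Rrm1 encode ribonucleotide reductase, the enzyme that makes deoxyribonucleotides. Rrm2 was at 70.1, 69.2 and 64.8 CPM in Untreated MEFs and 236, 214 and 205 CPM with pMXs (1.68 ± 0.09, adjusted p = 1.85e-10). Rrm1 was at 126, 114 and 108 CPM and then 367, 365 and 335 CPM (1.62 ± 0.07, adjusted p = 5.24e-11). In both genes the groups lay far apart compared with the spread inside them. Pcna, the sliding clamp of DNA polymerase, was at 44.4, 37.5 and 27.6 CPM and then 97.4, 81.2 and 86.8 CPM (1.27 ± 0.14, adjusted p = 7.69e-07).

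**Figure D2:**
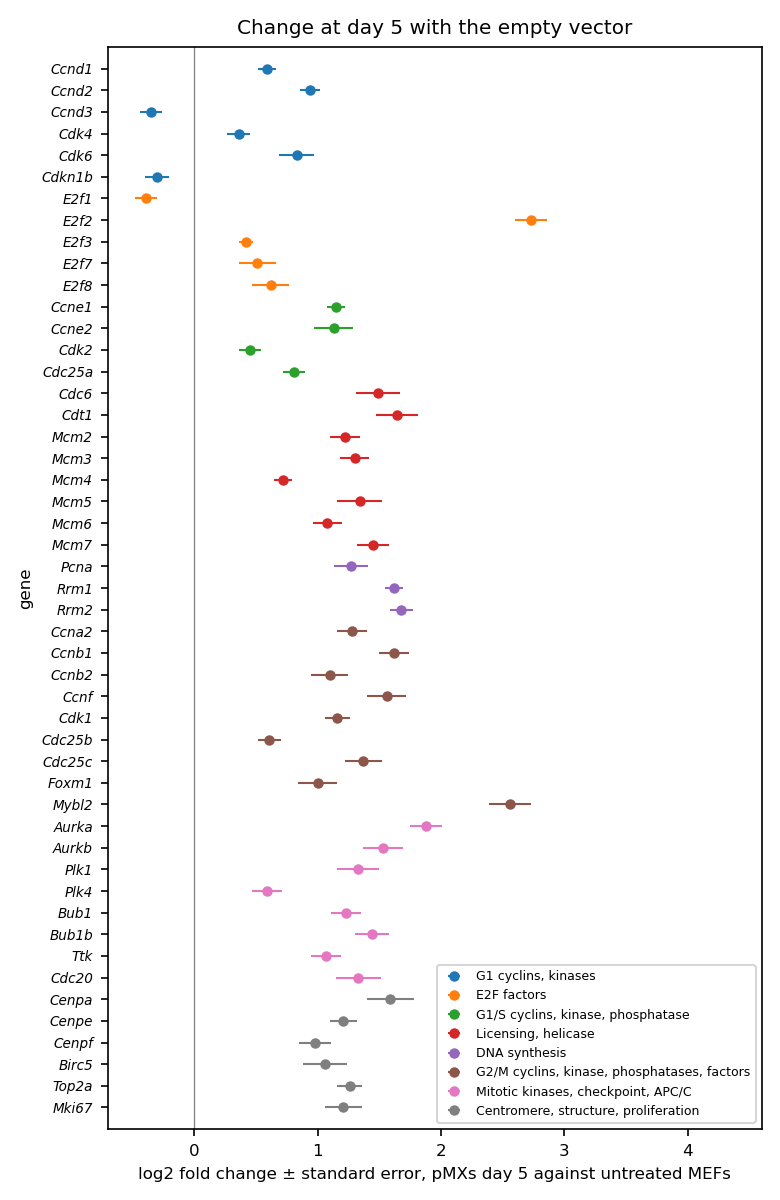
Log2 fold change with its standard error for each gene, pMXs day 5 against Untreated MEFs, coloured by role (3 libraries in each group). Most genes of S phase, G2 and mitosis lie between 1 and 2, E2f2 (2.73) and Mybl2 (2.56) lie above, and Ccnd3, Cdkn1b and E2f1 lie below 0.

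All 9 genes of the G2/M class rose, with a median of 1.28. Mybl2, which encodes the MuvB partner B-MYB, was at 5.45, 3.78 and 2.97 CPM in Untreated MEFs and 27.1, 22.4 and 23.5 CPM with pMXs (2.56 ± 0.17, adjusted p = 3.06e-09). Foxm1, the forkhead factor of the same program, rose by 1.00 ± 0.16 (adjusted p = 5.38e-05). Of the 2 late transcription factors, Mybl2 thus had the larger change, from a low base.

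Among the mitotic cyclins, Ccnb1 (cyclin B1) was at 20.3, 16.2 and 14.7 CPM and then 57.1, 50.7 and 49.3 CPM (1.62 ± 0.12, adjusted p = 1.75e-08). Ccnb2 (cyclin B2) changed by 1.10 ± 0.15, Ccna2 (cyclin A2) by 1.28 ± 0.12, Ccnf (cyclin F, a ubiquitin ligase subunit) by 1.56 ± 0.16 and Cdk1, the kinase of cyclins A and B, by 1.16 ± 0.10. The pMXs libraries lay above all Untreated libraries for each of these. Of the CDK1-activating phosphatases, Cdc25c changed by 1.37 ± 0.15, and Cdc25b by less, from 26.8, 22.2 and 20.9 CPM to 36.3, 34.5 and 35.9 CPM (0.61 ± 0.09, adjusted p = 3.21e-05).

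The mitotic kinases, checkpoint genes and the activator Cdc20 rose in 8 of 8, with a median of 1.33. Aurka (Aurora A, a centrosome and spindle kinase) was at 13.5, 11.3 and 7.94 CPM in Untreated MEFs and 43.9, 38.9 and 38.3 CPM with pMXs (1.88 ± 0.13, adjusted p = 7.18e-09). Aurkb (Aurora B, the kinase of the chromosomal passenger complex) was at 20.1, 13.5 and 11.1 CPM and then 46.7, 40.8 and 42.5 CPM (1.53 ± 0.16, adjusted p = 4.32e-07). Plk4, the kinase of centriole duplication, rose least, from 23.8, 20.8 and 16.6 CPM to 31.6, 31.3 and 29.2 CPM (0.59 ± 0.12, adjusted p = 0.000458). Plk4 differed in this from Plk1, the polo-like kinase of mitotic entry and exit, which changed by 1.33 ± 0.17.

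The spindle checkpoint genes Bub1, Bub1b and Ttk changed by 1.23 ± 0.12, 1.44 ± 0.14 and 1.07 ± 0.12. Cdc20, which activates the anaphase-promoting complex (APC/C), changed by 1.33 ± 0.18 over all libraries, by 1.19 within replicate numbers 1 and 2 (1 pMXs library) and by 1.95 within 100 and 250 (1 Untreated library). Cstf1 overlaps Aurka in RefSeq and itself rose (0.77 ± 0.08), by less than Aurka, whereas Elovl1, which overlaps Cdc20, fell (-0.53 ± 0.06). Whether counting used the strand is not known, so reads of overlapping genes cannot be told apart. Such overlaps touch 13 of the 49 genes. Bysl, which overlaps Ccnd3, rose (0.59 ± 0.10) where Ccnd3 fell. Ints8, which overlaps Ccne2, fell (-0.34 ± 0.08) where Ccne2 rose. Its means were 38.5 CPM in Untreated MEFs and 30.4 CPM with pMXs, above those of Ccne2.

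The last class, of centromere and chromosome genes and proliferation markers, rose in 6 of 6, with a median of 1.21. Cenpa, the histone H3 variant of centromeres, was at 20.7, 14.4 and 8.86 CPM in Untreated MEFs and 47.2, 43.3 and 42.2 CPM with pMXs (1.59 ± 0.19, adjusted p = 3.79e-06). Top2a, the topoisomerase that untangles chromosomes, was at 147, 140 and 109.9 CPM and then 336, 299.8 and 314 CPM (1.26 ± 0.10, adjusted p = 1.91e-08). Cenpf, a kinetochore protein of G2 and mitosis, was at 49.7, 52.6 and 37.7 CPM and then 111, 81.8 and 83.6 CPM (0.98 ± 0.13, adjusted p = 6.82e-06). For Cenpf the library pMXs 2 stood well above the other pMXs libraries.

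The same held for Mki67, the source of the Ki-67 antigen, at 496 CPM in pMXs 2 against 336 and 373 CPM in pMXs 100 and 250 (1.21 ± 0.15 against Untreated). Cenpe, a kinesin of the kinetochore, changed by 1.21 ± 0.11, and Birc5 (survivin, of the chromosomal passenger complex) by 1.06 ± 0.18. Within replicate numbers 100 and 250 Cenpa changed by 2.27 against the lone Untreated 100, and within 1 and 2 by 1.42 for the lone pMXs 2.

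Untreated MEFs varied more among themselves in these genes than day 5 cells did. The ratio of the highest to the lowest library had a median of 1.4 over the 49 genes in Untreated MEFs, against 1.14 with pMXs, 1.13 with Tet2-WT and 1.14 with Tet2-E. Over the 10933 genes with a mean of at least 5 CPM, the medians were 1.2, 1.13, 1.12 and 1.2. Untreated 1 was the highest of the 3 for 40 of the 49 genes and Untreated 100 the lowest for 42. The highest ratio was 2.33, for Cenpa. Leaving out any library in turn kept 46 genes higher and 3 lower.

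**Figure D3:**
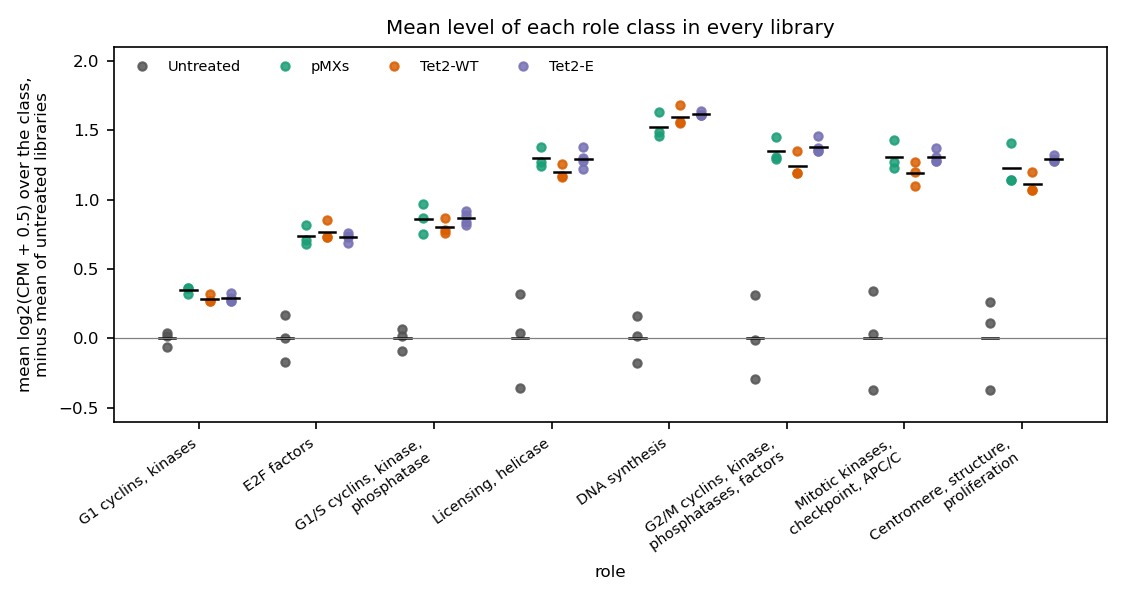
Mean of log2(CPM + 0.5) over the genes of each role, minus the mean of the Untreated libraries, for each library (points), with the group mean (black line). Day 5 libraries lie above Untreated libraries in every class, by least in the G1 class, and the Untreated points spread widest for the licensing, G2/M, mitotic and centromere classes.

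Day 5 cells with Tet2-WT or Tet2-E differed from the same Untreated libraries in a like number of genes. With Tet2-WT, 45 genes rose and 2 fell (37.3% and 35.3% of all genes), with a median change of 1.13, and 30 rose at least 2-fold (15.1% of all genes). With Tet2-E, 46 rose and 3 fell (36.7% and 36.1% of all genes), with a median of 1.25, and 34 rose at least 2-fold (14.3% of all genes). Groups did not overlap for 43 genes higher and 2 lower with Tet2-WT (38.1% and 36.1% of all genes). With Tet2-E they did not overlap for 45 higher and 3 lower (34.6% and 34% of all genes). These comparisons share the Untreated libraries with the one above, so their likeness is not separate evidence.

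E2f2 changed by 2.73, 2.85 and 2.63 with pMXs, Tet2-WT and Tet2-E, and the Tet2-WT and Tet2-E libraries lay at 15.4 to 17 and 12.7 to 14.9 CPM. Ccnd3 changed by -0.35, -0.61 and -0.49, with 118 to 135 CPM in Tet2-WT and 122 to 149 CPM in Tet2-E. The genes not called with Tet2-WT were Cdk4 (0.12, adjusted p = 0.241) and E2f1 (-0.03, adjusted p = 0.744). Some calls stood near the threshold. Cdk2 with Tet2-WT (0.21 ± 0.09, adjusted p = 0.04) did not pass with the replicate number as a block (adjusted p = 0.0723), nor without Untreated 2 or 100, pMXs 100 or any of the Tet2-WT libraries (adjusted p from 0.0504 to 0.164). E2f7 with Tet2-WT (0.40 ± 0.15, adjusted p = 0.0213) did not pass without Untreated 2 or 100 or Tet2-WT 1 or 2 (adjusted p from 0.0533 to 0.104). Cdk4 with Tet2-E (0.20 ± 0.09, adjusted p = 0.0424) did not pass with the block (adjusted p = 0.0559), nor without Untreated 2 or 100, pMXs 250, Tet2-WT 1 or 2, or Tet2-E 100 or 250 (adjusted p from 0.0506 to 0.185). The fall of E2f1 with Tet2-E (-0.31 ± 0.08) did not pass with total-count scaling (-0.14, adjusted p = 0.129), and it was -0.07 within replicate numbers 100 and 250, against 1 Untreated library.

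What wild-type Tet2 changed among these genes by day 5 was small. Against pMXs, Ccnd1 and E2f1 rose and no gene fell (6.01% of all genes rose and 6.52% fell). The 49 changes ran from -0.32 to 0.41 with a median of -0.09, and 40 were below 0, where the median of all genes was 0. At an unadjusted p under 0.05 there were 8 of the 49 (25.2% of all genes). Groups did not overlap for 3 genes with Tet2-WT higher and 12 with it lower, against 17.7% and 16.9% of all genes.

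Ccnd1 was at 1297, 1375 and 1321 CPM with pMXs, at 1865, 1675 and 1755 CPM with Tet2-WT and at 1408, 1466, 1468 and 1424 CPM with Tet2-E. Every Tet2-WT library lay above every other library of the study for this gene. The rise over pMXs was 0.41 ± 0.07 (adjusted p = 0.000733), a 1.33-fold difference, and the direct comparison with Tet2-E gave 0.29 ± 0.06 (adjusted p = 0.0107). The latter did not pass without Tet2-WT replicate 1 (0.25, adjusted p = 0.0901). It was 0.30 within replicate numbers 1 and 2 and 0.28 within 100 and 250, where Tet2-WT is 1 library. Cyclin D1 thus had its lowest level in Untreated MEFs and its highest with Tet2-WT, whereas for Ccnd2 Tet2-WT and pMXs overlapped (-0.03 ± 0.08, adjusted p = 0.851).

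E2f1 was at 25.9, 27.5 and 26.4 CPM with pMXs, at 33.9, 34.9 and 33.4 CPM with Tet2-WT and at 28, 26.7, 27.8 and 29.6 CPM with Tet2-E. All Tet2-WT libraries were above all other day 5 libraries and within the range of Untreated MEFs (30.2 to 38.7 CPM). The rise over pMXs was 0.35 ± 0.09 (adjusted p = 0.0127), and it did not pass without pMXs replicate 250 (adjusted p = 0.0504) or without Tet2-WT replicate 2 (adjusted p = 0.0578). It was 0.41 within replicate numbers 1 and 2, with 1 pMXs library, and 0.31 within 100 and 250, with 1 Tet2-WT library. Against Tet2-E the difference was 0.28 ± 0.08 and did not pass (adjusted p = 0.0607). It passed in DESeq2 (adjusted p = 0.0405), and in edgeR without Untreated 1 (adjusted p = 0.0337) or Untreated 100 (adjusted p = 0.0149).

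Cdkn1b was at 73, 73.9 and 78.8 CPM with pMXs, 53.1, 59.5 and 70 CPM with Tet2-WT and 57.5, 71.5, 66.9 and 69.2 CPM with Tet2-E. Both Tet2 groups lay below the pMXs libraries without overlap, and replicate 1 was the lowest in each. Against pMXs, Tet2-WT gave -0.31 ± 0.10, which missed the threshold (adjusted p = 0.052), while with the replicate number as a block it passed (-0.28, adjusted p = 0.0446). It also passed in DESeq2 (adjusted p = 0.0271) and without Tet2-WT 250 (-0.42, adjusted p = 0.00958), Untreated 100 (adjusted p = 0.0437), Tet2-E 1 (adjusted p = 0.0365) or Tet2-E 2 (adjusted p = 0.0477). It was -0.37 within replicate numbers 1 and 2, with 1 pMXs library, and -0.12 within 100 and 250, with 1 Tet2-WT library.

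Cenpf was at 111, 81.8 and 83.6 CPM with pMXs, 84.5, 84.5 and 76 CPM with Tet2-WT and 104, 104, 91.4 and 89.9 CPM with Tet2-E. The Tet2-WT libraries lay below all Tet2-E libraries but within reach of pMXs 100 and 250. Against pMXs the difference was -0.17 ± 0.13 (adjusted p = 0.453), and with the replicate block it passed (-0.26, adjusted p = 0.043). Against Tet2-E it was -0.25 ± 0.12 (adjusted p = 0.328), and with the block -0.31 (adjusted p = 0.0171). Within replicate numbers 100 and 250, with 1 Tet2-WT library, the differences were -0.12 and -0.26. Within 1 and 2 they were -0.39, with 1 pMXs library, and -0.30. With the block, 2 of the 49 genes rose and 2 fell against pMXs (6.02% and 7.01% of all genes).

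**Figure D4:**
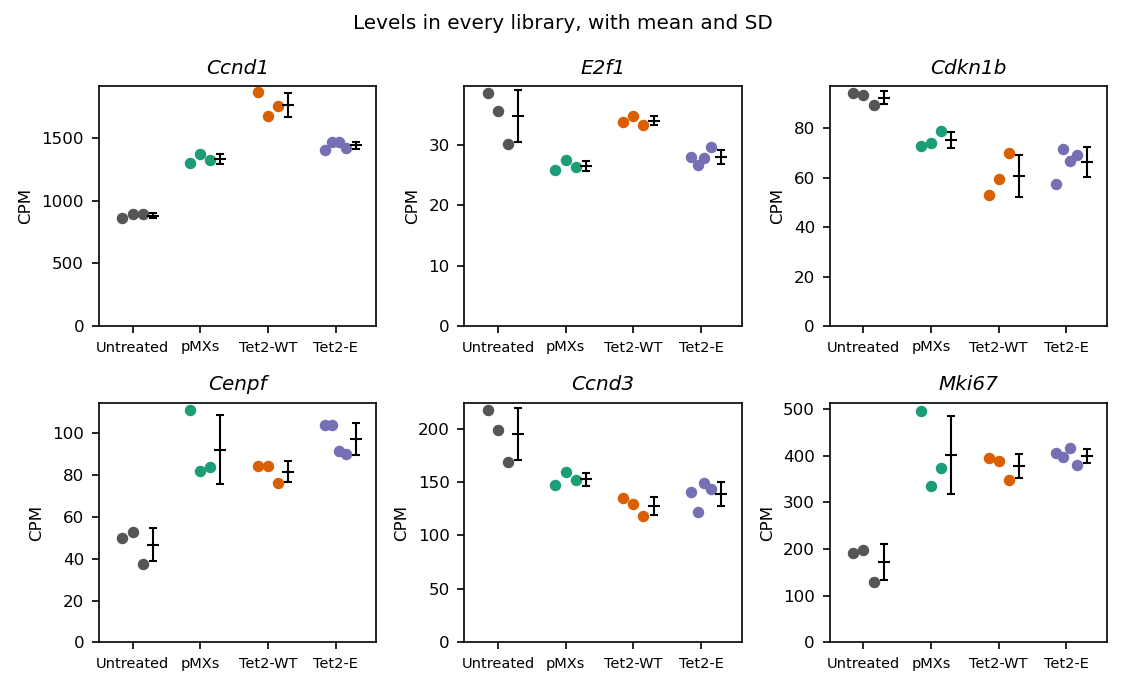
Levels in CPM of 6 genes in every library (points), with mean and standard deviation per group (n = 3, 3, 3 and 4), each panel on its own scale from 0. Ccnd1 is highest with Tet2-WT (1675 to 1865 CPM), E2f1 is at 33.4 to 34.9 CPM there, and pMXs replicate 2 stands apart for Cenpf (111 CPM) and Mki67 (496 CPM).

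The remaining genes differed little between Tet2-WT and pMXs. All 8 licensing genes had changes below 0, from -0.17 to -0.04, as did all 8 mitotic kinase and checkpoint genes, from -0.21 to -0.07, and all 6 centromere genes, from -0.20 to -0.08. None of these passed. The median standard error of the 49 genes was 0.12, so that the smaller of these changes lie within 1 standard error. The largest, -0.21 and -0.20, were beyond this median. Among the pMXs libraries, replicate 2 was the highest for 41 of the 49 genes. The median change of the 49 was -0.19 within replicate numbers 1 and 2, with 1 pMXs library. It was -0.06 within 100 and 250, with 1 Tet2-WT library. Groups did not overlap, with Tet2-WT lower, for 12 of the 49 genes (16.9% of all genes). Among these were Top2a (-0.20 ± 0.10, adjusted p = 0.218) and Cdc25c (-0.32 ± 0.14, adjusted p = 0.155). Rrm1 and Rrm2 went the other way, with 0.17 ± 0.07 (adjusted p = 0.146) and 0.10 ± 0.08 (adjusted p = 0.513). For Mki67 the sign rested on 1 library, since the difference was -0.09 ± 0.15 over all libraries and 0.09 (adjusted p = 0.751) without pMXs replicate 2.

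Against Tet2-E, Tet2-WT had 1 gene higher (Ccnd1) and 0 lower (2.43% and 2.19% of all genes, 4.62% in either direction). Changes below 0 were found for 41 of the 49, with a median of -0.11 against -0.01 for all genes. At an unadjusted p under 0.05 there were 7 genes (15.6% of all genes). Groups did not overlap for 3 genes with Tet2-WT higher and 9 with it lower, against 7.48% and 7.54% of all genes. Ccnb1 (-0.29 ± 0.11, adjusted p = 0.191), Top2a (-0.24 ± 0.09, adjusted p = 0.178) and Cdk1 (-0.22 ± 0.09, adjusted p = 0.222) had the larger differences with a small error, and the libraries of Top2a and Cdk1 did not overlap. With the block, Ccnd1 was higher and Cenpf lower (3.14% and 3.46% of all genes).

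The stalling mutant changed none of the 49 genes against pMXs in edgeR, where 0.0205% of all genes rose and 0.0274% fell (0.0479% in either direction). With the replicate block it was also 0, where 0.267% of all genes rose and 0.37% fell. DESeq2 also called 0 of the 49, and 1 gene (Rrm1) had an unadjusted p under 0.05 (9.33% of all genes). The changes ran from -0.18 to 0.20, with 26 above 0 and 23 below, and the smallest adjusted p was 0.511. This even split did not hold within the number sets. Within replicate numbers 1 and 2, with 1 pMXs library, 9 were above 0 and 40 below (median -0.09). Within 100 and 250, 41 were above 0 and 8 below (median 0.08). Groups did not overlap for 2 genes with Tet2-E higher (Ccnd1, at 0.12 ± 0.06, and Rrm1, at 0.15 ± 0.07) and 1 with it lower (Cdkn1b, at -0.18 ± 0.09), against 5.65% and 4.5% of all genes. These changes exceeded their own standard errors but did not pass, and the median standard error of the 49 genes was 0.11.

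**Figure D5:**
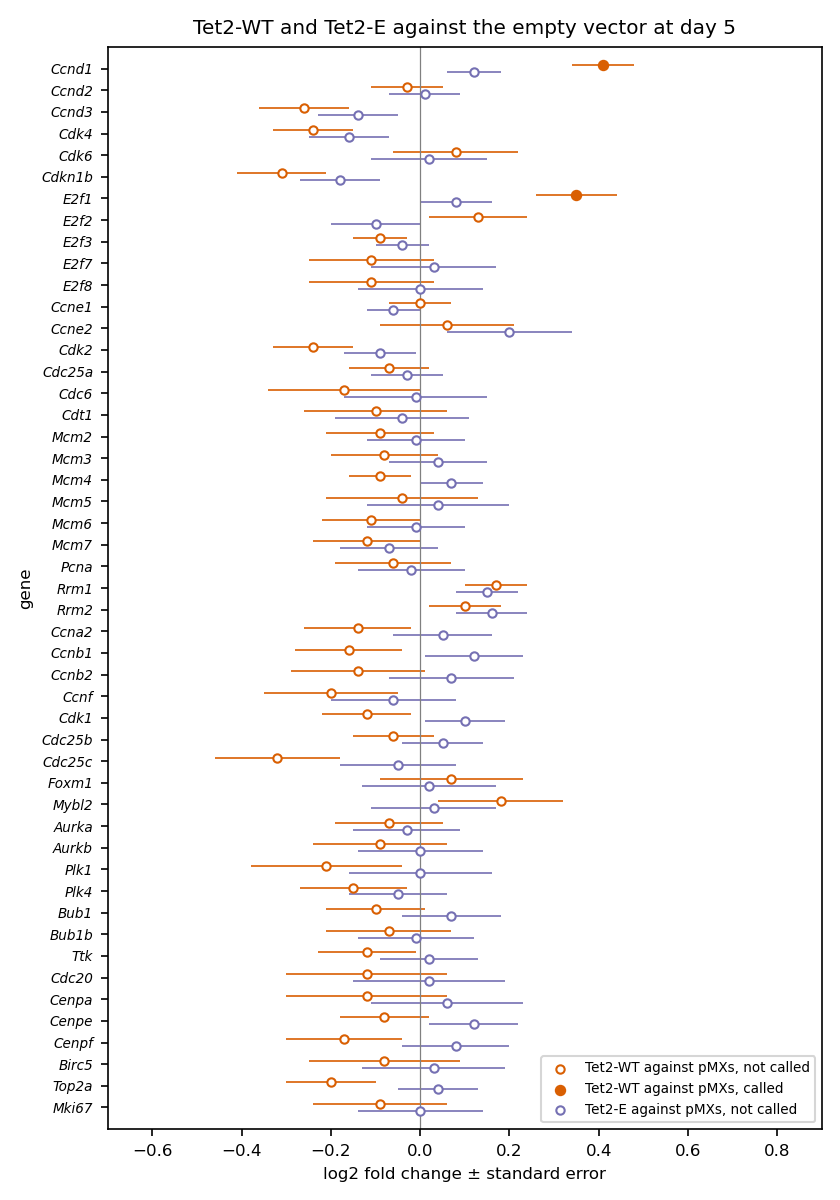
Log2 fold change with its standard error of each gene for Tet2-WT (orange) and Tet2-E (purple) against the same pMXs libraries; filled points passed the threshold. Ccnd1 (0.41) and E2f1 (0.35) are the 2 filled points, most orange points of the lower rows lie left of 0, and purple points scatter between -0.18 and 0.20.

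A wider list of 142 cell cycle genes, all tested, gave the setting. Against Untreated MEFs, 110 rose and 11 fell with pMXs, with a median of 0.84 (all genes tested: 35% rose and 35% fell, median 0). Genes of replication origins and forks rose in 38 of 43 and fell in 0, led by Mcm10, a helicase assembly factor (29.5 against 6.44 CPM, 2.18 ± 0.14). Genes of spindle, kinetochore and condensation rose in 53 of 55, led by Cdca5, the cohesin regulator sororin (2.01 ± 0.19), and 1, Zwint of the kinetochore, fell (-0.28 ± 0.07).

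The inhibitors and pocket proteins were divided, with 10 of 21 genes higher and 4 lower (35% and 35% of all genes), and a median of 0.21. Rb1, the RB pocket protein, rose from 36.3, 46.4 and 55.5 CPM to 129, 133 and 129 CPM (2.83-fold, adjusted p = 1.79e-08). Its relative Rbl2 (p130), which is known for quiescent cells, fell (-0.93 ± 0.11). Of the CDK inhibitors, Cdkn1c (p57) fell from 104, 84.3 and 134 CPM to 9.13, 23.7 and 26.1 CPM (-2.44 ± 0.39), and Cdkn2b (p15) and Cdkn2a fell by 1.14 and 0.38, whereas Cdkn1a (p21) rose (0.38 ± 0.07, adjusted p = 0.000322). The genes of the APC/C, SCF and related ligases moved both ways, 9 higher and 6 lower of 23 with a median of 0.03, shares near those of all genes. They ran from Ube2c, the ubiquitin-conjugating enzyme of the APC/C (1.66 ± 0.14), to its subunit Anapc11 (-0.59 ± 0.12).

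Between Tet2-WT and pMXs, 1 of the 142 rose and 2 fell, where 6.01% and 6.52% of all genes did. Cdkn1c was at 9.13, 23.7 and 26.1 CPM with pMXs, 4.32, 5.74 and 7.31 CPM with Tet2-WT and 4.61, 6.92, 10.2 and 13.9 CPM with Tet2-E (-1.77 ± 0.43 for Tet2-WT, adjusted p = 0.0197). Fbxw7, the SCF subunit that marks cyclin E and Myc for destruction, rose (0.28 ± 0.08, adjusted p = 0.027), and Lin52 of the MuvB core fell (-0.45 ± 0.12, adjusted p = 0.0204). With the block, Kif14 (-0.39, adjusted p = 0.0361) and Cdkn2b (-0.36, adjusted p = 0.00374) fell too. Between Tet2-E and pMXs, 0 of 142 passed, and with the block Cdkn1c fell (-1.01, adjusted p = 0.0319). Between Tet2-WT and Tet2-E, 0 passed, and with the block Cdkn2b was lower with Tet2-WT (-0.28, adjusted p = 0.0172).

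Other measures also differed between the groups. Myc, part of the cassette, was at 37.1 to 62.9 CPM in Untreated MEFs, 437 to 481 CPM with pMXs, 506 to 557 CPM with Tet2-WT and 361 to 526 CPM with Tet2-E. The summed level of 12 fibroblast markers was 39239 to 41580.1 CPM in Untreated MEFs, 16355 to 18536 CPM with pMXs, 10331 to 12040.4 CPM with Tet2-WT and 13999 to 15143 CPM with Tet2-E. All 12 fell with pMXs against Untreated MEFs, and with Tet2-WT against pMXs 6 fell and 1 (Twist2) rose. With the replicate block 7 fell and 0 rose. Fibroblast markers thus stayed present at day 5, when the culture also holds feeder MEFs.

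The sum of 10 epithelial markers was 2.87 to 4.23 CPM in Untreated MEFs, where Ocln was at 0. It was 326 to 414, 233 to 349 and 258 to 319 CPM in the 3 day 5 groups. Cdh1 carried most of it, with means of 305, 234 and 237 CPM. Of the 10, 9 were called higher with pMXs than in Untreated MEFs (10 with the block, which adds Krt18). Against pMXs, Krt8 (1.08) and Krt18 (1.77) rose with Tet2-WT and 0 fell, with a median of 0.22. Cdh1 fell there with the block (-0.46, adjusted p = 0.0275). The sum of 8 pluripotency markers was 0.536 to 1.01 CPM in Untreated MEFs (Dppa3 and Dppa5a at 0) and 53 to 72.9 (Dppa5a at 0), 63.1 to 86.8 and 63.2 to 77.5 CPM at day 5. Fgf4 carried most of it, with means of 46.9, 62.9 and 54.2 CPM. Of the 5 tested, Esrrb fell with Tet2-WT against pMXs (-1.09, adjusted p = 0.0485), and the median was -0.45. With the block Fgf4 rose (0.43, adjusted p = 0.0115) and Esrrb did not pass (adjusted p = 0.089). The sum of 8 macrophage markers was 5.89 to 6.86, 81 to 94.6, 213 to 309 and 93.5 to 127 CPM in the 4 groups, carried at day 5 by Laptm5. Csf1r stood at 1.25 CPM or less and Lyz2 at 3.02 CPM or less in every library. Of the 8, Ptprc, Adgre1 and Cd53 were at 0 with pMXs and Adgre1 with Tet2-WT. With pMXs against Untreated MEFs, 3 of the 6 tested rose and 3 (Csf1r, Lyz2 and Cd53) fell, with a median of -0.41. Between Tet2-WT and pMXs, 4 of the 6 rose and 0 fell. The part of Myc and of these markers in the cell cycle changes was not tested.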

How the data were processed

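Bulk RNA-seq was deposited as raw read counts per gene for 13 libraries. Per the submitters' processing notes, the authors used STAR 2.6.1a, SAMtools 1.7, bedtools 2.27.1, featureCounts 1.6.2, R 3.6.2, DESeq2 1.26.0 and the mm9 build; the strand setting is not given in the sources used here. Libraries came from a stranded mRNA kit, prepared in 2 sets whose members the labels do not name. The tests used edgeR 4.0.16 under R 4.3.3. Its filterByExpr (count minimum 10, total minimum 15) kept 14607 of 24495 genes. After TMM scaling, all 13 libraries entered 1 quasi-likelihood fit (robust option), where each group had its own mean. P-values were Benjamini-Hochberg adjusted over all genes tested. A standard error is the size of the log2 change over the square root of its F statistic, and CPM uses TMM-scaled totals. The common biological coefficient of variation was 0.102, so replicate spread and not counting limits most of these genes.

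The genes, their role classes and the other lists were chosen with earlier results of these data known. Values in every library are given for genes called between day 5 groups (in the main or blocked fit), for the 2 largest rises and the largest fall or smallest rise of each class with pMXs, and for genes called against their class. Of each other list, the largest called rise and fall are named; Rbl2, Cdkn2a, Cdkn2b and Cdkn1a were named after their values were seen. Replicate numbers 1, 2, 100 and 250 recur across groups. Deviations from group means correlated at 0.13 to 0.44 across genes between day 5 libraries of the same number, so these were taken as linked. The main fit does not use this link, which enters only through the replicate block, an alternative. Day 5 libraries with other numbers of the same set (1 with 2, 100 with 250) correlated as highly, at 0.08 to 0.46, so the link may be by set. Those across sets correlated at -0.53 to -0.09. Deviations from a group mean cancel out inside the group, which by itself pushes some of these values to be negative. Same-numbered pairs correlated at -0.06 to 0.23 with Untreated libraries. A link to Untreated libraries was not assumed from this. The replicate block was nonetheless fitted over all 13 libraries, so it also ties Untreated libraries to day 5 libraries by number. Alternatives were RLE scaling, total counts, DESeq2 1.42.0, other filters, the replicate block, a set term (numbers 1 and 2 against 100 and 250), fits of 2 groups, and leaving out each library; contrasts within the sets, from a fit with a mean per group and set, were added after seeing the data. The procedure was tested on simulated data with independent libraries and the same spread for every gene. That test did not cover the link between libraries described above.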

Additional observations from a re-analysis of the deposited data

Results flagged for a closer look

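In the 4 Tet2-E libraries, 2 of the 49 genes had 1 library set apart from the other 3 by more than Dixon's critical value. Ccnb2 (cyclin B2) was at 34.5 CPM in Tet2-E replicate 250 and at 28.6 to 29.2 CPM in the others, a gap of 0.895 of the whole range. Aurkb (Aurora B) was at 47.8 CPM in the same library and at 41.3 to 42.3 CPM in the others, a gap of 0.843 of the range. Chance alone flags about 1 in 20 of the 49 genes screened, and the groups of 3 libraries were not screened.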

How the results depend on the processing

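The rises of 46 genes with pMXs over Untreated MEFs were found under every alternative run. For Tet2-WT the count of rises was 43 to 46, for Tet2-E it was 44 to 46. Few called genes make the other counts sensitive. The count lower with pMXs was 1 with total counts and 0 in replicate numbers 100 and 250, where the count lower with Tet2-E against Untreated MEFs was 1. For Tet2-WT against pMXs, the count higher was 1 in numbers 100 and 250 and 1 to 2 when leaving out each library. The count lower, 0 in the fit reported, was 1 with RLE scaling, 1 with DESeq2, 1 with the set term, 3 in the fit of 2 groups, 2 in numbers 1 and 2, 1 in numbers 100 and 250, and 0 to 2 when leaving out each library. With the replicate block it was 2, and for Tet2-WT against Tet2-E the block gave 1 lower. For Tet2-WT against Tet2-E, the count higher was 2 with DESeq2, 2 in the fit of 2 groups, 2 in numbers 1 and 2, 0 in numbers 100 and 250, and 0 to 2 when leaving out each library. The count lower was 1 with the set term, 1 in numbers 1 and 2, and 0 to 1 when leaving out each library. Among the 49 genes the block changed no other call than those given with the results, and in the 142 it gave 112 higher and 12 lower with pMXs against Untreated MEFs. Between Tet2-WT and pMXs, Mki67 ran from -0.2 to 0.09 when leaving out each library, reversing without pMXs replicate 2. The cause of these shifts was not tested; contrasts within number sets have 1 library for pMXs (1 and 2), or for Untreated and Tet2-WT (100 and 250), and say little on stability. With 3 or 4 libraries a group and a median standard error of 0.11 to 0.12, depth is not the limit for most of these genes.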
